A study of Homo sapiens with 24 samples.

Results

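In this experiment all 3 members of a human gene family, RPRD1A, RPRD1B and RPRD2, were lowered together by siRNAs, short duplexes that direct the cleavage of matching messenger RNA. The cells were HEK293T, a line of human embryonic kidney origin that carries the SV40 large T antigen. The members are the 2 samples titled RPRD1A_RPRD1B_RPRD2_KD and the 2 samples titled CTRL, 4 of the 24 samples in the series. The CTRL cells were labelled as transfected with an siRNA whose knockdown is given as control, so both groups went through transfection, and RNA was taken after 48 h. The series asked what the RPRD proteins do to the amount of RNA that accumulates at steady state. The same cell line was used in 6 other silenced groups of 2 samples each, RPRD1A_KD, RPRD1B_KD, RPRD2_KD, RPRD1A_RPRD1A_KD, RPRD1A_RPRD2_KD and RPRD1B_RPRD2_KD, which serve here as points of comparison. The label RPRD1A_RPRD1A_KD names the same gene in both positions and is kept as given, whereas the names of its deposited tables point to 1A and 1B, so the targets of that group are uncertain. The siRNA sequences are not given in the sources used here, and a single line cultured under one treatment time limits what the groups stand for.

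RPRD proteins carry a CTD-interacting domain, which binds the repeated tail (the C-terminal domain, CTD) of the largest RNA polymerase II subunit when that tail is phosphorylated. RPRD1A and RPRD1B are known to bring the RPAP2 phosphatase to the polymerase, and RPRD1B, also called CREPT, is known as a promoter of cyclin D1 and Wnt target gene transcription in tumour cells. RPRD2 is the largest and least studied of the family.

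Expression was read from the 3′ ends of polyadenylated transcripts with the QuantSeq REV kit, so a count follows transcript number and not transcript length. The 4 libraries held 1833696 to 2297120 counts in genes and 15975 to 16283 detected genes, and levels are given as CPM, counts relative to library size after TMM scaling. The detection floor of 3 counts lay between 1.29 and 1.7 CPM in these libraries. Of 15 HEK293 marker genes 12 reached that floor in all 4 libraries, with a summed level of 1148 to 1174 CPM in CTRL and 1074 to 1130 CPM in the triple knockdown. Of 22 markers of other cell types 4 reached it and 11 were at 0 in all 4, with sums of 45.6 to 79.3 CPM and 60.7 to 85.3 CPM. The second RPRD1A_RPRD2_KD library stood apart from the rest. For each library, the log2 CPM of each gene minus its mean over the 16 HEK293T libraries was correlated with transcript GC content. This Spearman correlation was 0.418 in that library against -0.121 to 0.0873 in these 4 libraries. The library that stood apart enters the shared estimate of spread, so each count of called genes is given with it and without it. Nothing in the labels says that the 2 samples of a group came from separate cultures, so p-values measure only the spread between these samples, which may be technical, and in such bulk samples a change in RNA per cell cannot be told apart from a change in the mix of cells.

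All 3 targeted messenger RNAs were lower in both triple knockdown libraries than in both controls, by unequal amounts. RPRD1A measured 156 and 166 CPM in the controls and 25.3 and 27.6 CPM in the triple knockdown, which left 16.4% of the control mean. RPRD1B measured 28.5 and 28.3 CPM in the controls against 14.8 and 6.46 CPM, or 37.4% of control, and these levels rest on only 50 and 62 counts against 28 and 15. RPRD2 measured 98.6 and 102 CPM against 70.2 and 53 CPM, or 61.4% of control. The second triple library was thus the lower one for RPRD1B and RPRD2, while for RPRD1A the 2 libraries lay close together. By edgeR's quasi-likelihood test with Benjamini-Hochberg adjustment over 11834 genes and the replicate number as a block, RPRD1A fell by 2.60 on the log2 scale (SE 0.21, edgeR adjusted p = 1.41e-06). RPRD1B had a log2 fold change of -1.49 (SE 0.31) and RPRD2 one of -0.72 (SE 0.15), and neither passed the same edgeR test with all 16 HEK293T samples (adjusted p = 0.0959 and 0.111). With the second RPRD1A_RPRD2_KD library omitted both passed (edgeR, adjusted p = 0.0013 and 0.00197). In the genome RPRD1A lies on the minus strand at chr18:35984387-36067576, RPRD1B on the plus strand at chr20:38033546-38127780 and RPRD2 on the plus strand at chr1:150363091-150476566 (GRCh38, GENCODE release 29).

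The levels of the targets left by the 3 siRNAs can be set beside those in the groups aimed at fewer genes. RPRD2 was at 34.7 and 31.1 CPM in RPRD2_KD, 47 and 49.2 CPM in RPRD1A_RPRD2_KD and 46.7 and 39.9 CPM in RPRD1B_RPRD2_KD, so both triple knockdown libraries lay above all 6 of these. RPRD1B was at 10.5 and 6.2 CPM in RPRD1B_KD and 11.5 and 3.99 CPM in RPRD1B_RPRD2_KD, ranges that overlap the triple knockdown. In the group labelled RPRD1A_RPRD1A_KD, RPRD1B was at 14.3 and 8.11 CPM, below both controls, although the label does not name it. RPRD1A was at 86.3 and 102 CPM in RPRD1B_KD, 75 and 99.7 CPM in RPRD2_KD and 69.7 and 85.3 CPM in RPRD1B_RPRD2_KD, all below its control levels. The amounts of siRNA in each mixture are not given in the sources used here.

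Across the transcriptome 8 genes passed the test against CTRL and all 8 fell, among them RPRD1A. They were 0.0676% of the 11834 genes tested, and no gene rose in this fit, in which 342 genes were higher (2.89%) and 518 lower (4.38%) at an unadjusted p under 0.05. The other 7 were GIPC1, NDUFAF3, ORMDL2, TMEM141, JMJD4, TOR3A and the pseudogene NPM1P27, with 33.8% to 64.4% of the control level left. All 8 were also called by DESeq2 with the block, which called 12 genes. Without the replicate block only RPRD1A and GIPC1 were called (edgeR, adjusted p = 0.000116 and 0.00414), and leaving out any one of the 4 libraries cut the count to 3 or 4, with RPRD1A, GIPC1 and NDUFAF3 called each time.

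To show what lies in front of the untargeted protein-coding genes called with all 16 samples, the 100 bases upstream of the annotated start are printed 5′ to 3′ on the strand of the gene for all of them but TOR3A (RefSeq, GRCh38.p14). Capitals mark a GC box (GGGCGG or its reverse complement) or a CCAAT box (CCAAT or its reverse complement), the only motifs of the 5 searched that occur in these stretches. The others were the core ETS motif CCGGAAG, the TATA box with the letters TATAAA, and the E-box with the letters CACGTG.
GIPC1, chr19:14496150-14496249, minus strand: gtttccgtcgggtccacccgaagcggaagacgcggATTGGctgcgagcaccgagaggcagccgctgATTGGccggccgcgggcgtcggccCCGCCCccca
NDUFAF3, chr3:49020352-49020451, plus strand: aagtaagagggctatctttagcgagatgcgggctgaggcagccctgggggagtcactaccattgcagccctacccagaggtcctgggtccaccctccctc
ORMDL2, chr12:55817819-55817918, plus strand: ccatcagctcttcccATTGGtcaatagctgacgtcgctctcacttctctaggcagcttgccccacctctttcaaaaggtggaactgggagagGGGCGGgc
JMJD4, chr1:227735412-227735511, minus strand: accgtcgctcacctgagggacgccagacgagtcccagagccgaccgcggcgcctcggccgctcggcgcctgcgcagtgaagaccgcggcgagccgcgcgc
TMEM141, chr9:136791244-136791343, plus strand: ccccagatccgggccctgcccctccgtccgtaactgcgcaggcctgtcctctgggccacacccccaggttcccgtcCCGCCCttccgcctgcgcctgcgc
The GC content of these stretches was 74% for GIPC1, 61% for NDUFAF3, 57% for ORMDL2, 77% for JMJD4 and 75% for TMEM141. The NDUFAF3 stretch lies before the most upstream of its 4 RefSeq starts. JMJD4 and NDUFAF3 had none of the 5 motifs within 250 bases of the start used.

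GIPC1, a PDZ-domain adaptor that links membrane receptors to the motor protein myosin VI, had the largest fall among the 7 untargeted genes called with all 16 samples. It measured 205 and 178 CPM in the controls and 75.5 and 53.8 CPM in the triple knockdown, a log2 fold change of -1.57 (SE 0.16, edgeR adjusted p = 1.91e-05). Both triple libraries lay far below the lower of the 2 controls. GIPC1 lies on the minus strand at chr19:14477760-14496149, and the only gene that overlaps it in GENCODE is the small pseudogene SNRPGP15 on the other strand.

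NDUFAF3, an assembly factor of mitochondrial complex I, measured 148 and 196 CPM in the controls and 55.4 and 77.9 CPM in the triple knockdown. Its log2 fold change was -1.37 (SE 0.14, edgeR adjusted p = 1.91e-05), and the second library was the higher one in both groups, so the fall within each replicate pair was alike. NDUFAF3 lies on the plus strand at chr3:49020459-49023495 and shares 1835 bases with DALRD3 on the other strand. The strand setting of the counting is not given in the sources used here, so reads in shared stretches cannot be assigned with certainty. DALRD3 itself had a log2 fold change of 0.10 (SE 0.41).

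ORMDL2, an endoplasmic reticulum protein that restrains serine palmitoyltransferase, the first enzyme of sphingolipid synthesis, measured 76.4 and 80.6 CPM in the controls and 26.4 and 43.9 CPM in the triple knockdown (log2 fold change -1.17, SE 0.18, edgeR adjusted p = 0.00947). TMEM141, a small membrane protein, measured 117 and 128 CPM against 48.6 and 65.5 CPM (log2 fold change -1.11, SE 0.19, edgeR adjusted p = 0.0202). Neither gene's groups overlapped, and each was lowest in the first triple library. ORMDL2 lies at chr12:55817919-55821879 and shares 920 bases with DNAJC14 on the other strand, which had a log2 fold change of 0.04. The protein-coding gene AC023055.1, also on the other strand, overlaps all 3961 bases of ORMDL2. TMEM141 lies at chr9:136791355-136793257, inside the span of AL355987.3 on the same strand for 1879 bases.

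JMJD4, an oxygenase that hydroxylates a translation termination factor, measured 119 and 103 CPM in the controls and 57.6 and 62 CPM in the triple knockdown. Its log2 fold change was -0.89 (SE 0.15, edgeR adjusted p = 0.0202). The gene, at chr1:227730425-227735411 on the minus strand, lies wholly within the span of SNAP47 on the other strand, and SNAP47 had a log2 fold change of -0.21 (SE 0.22). TOR3A, an ATPase of the torsin family in the endoplasmic reticulum, measured 304 and 285 CPM against 212 and 167 CPM (log2 fold change -0.64, SE 0.12, edgeR adjusted p = 0.0382) and lies at chr1:179081377-179098023. It kept 64.4% of its control level, the largest share among the 8 genes.

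NPM1P27, a processed pseudogene of the nucleophosmin gene NPM1 that sits inside FAM172A at chr5:93682838-93683667, measured 121 and 103 CPM in the controls and 59.7 and 56 CPM in the triple knockdown (log2 fold change -0.95, SE 0.16, edgeR adjusted p = 0.0202). Reads of a processed pseudogene cannot be separated with certainty from those of its parent. NPM1 measured 543 and 635 CPM in the controls and 527 and 524 CPM in the triple knockdown, a log2 fold change of -0.16 (SE 0.11) that did not pass (edgeR, adjusted p = 0.805). The host gene FAM172A had a log2 fold change of 0.05 (SE 0.41).

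**Figure D1:**
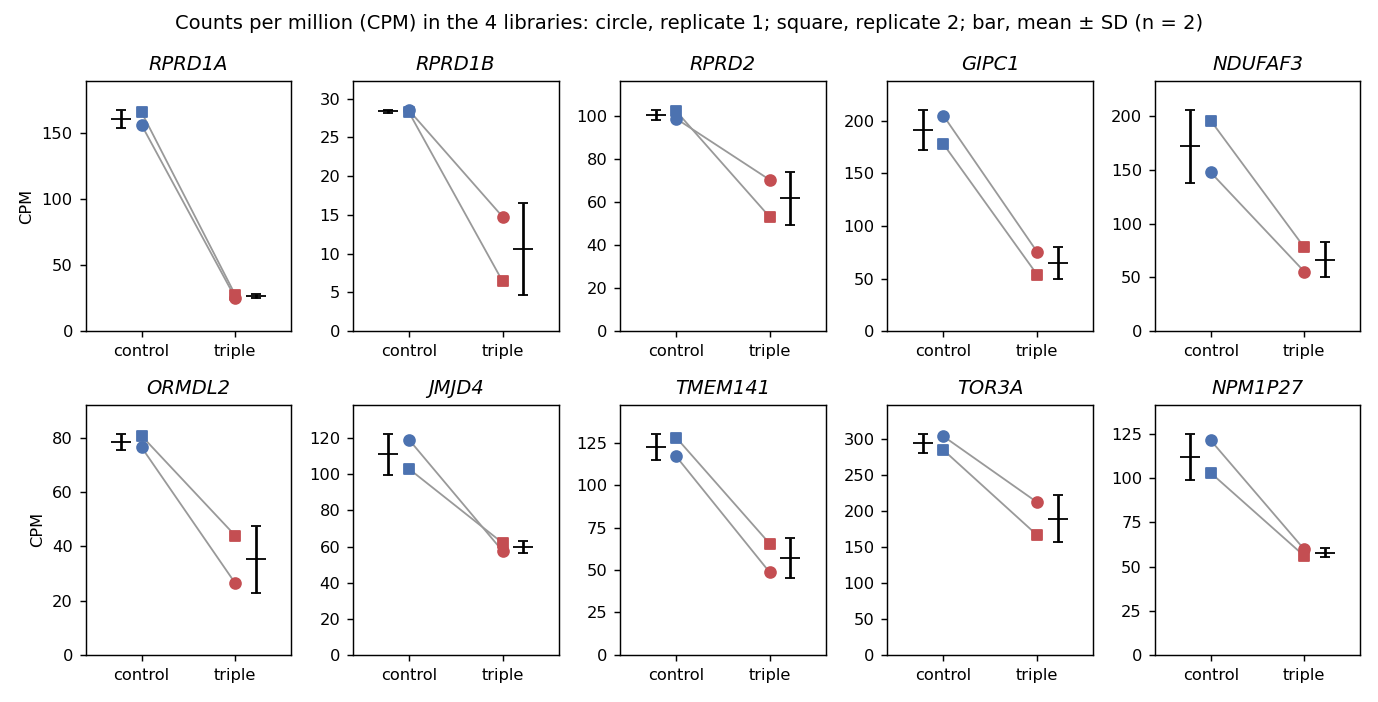
Level (CPM, axes from 0) of the 3 targeted genes and the 7 other genes called lower in CTRL and in the triple knockdown, with a circle for replicate 1, a square for replicate 2, lines joining the replicate numbers and bars for the mean ± SD (n = 2). In all 10 panels both triple knockdown libraries lie below both controls, and RPRD1B shows the widest relative gap between the 2 triple libraries (14.8 and 6.46 CPM).

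Omitting the second RPRD1A_RPRD2_KD library, which belongs to neither group, lowered the common dispersion from 0.0117 to 0.00409 and brought the number of called genes to 129 of 12255. Of these 107 were lower (0.873% of the genes tested) and 22 higher (0.18%), and the 129 included all 8 genes above. All 129 moved in the same direction in the fit with 16 samples and in both replicate pairs, and in 113 the samples of the groups did not overlap. These counts use the libraries that gave the calls, so they are no separate support for them. Over all genes tested with 16 samples both pairs were lower in 27.8% and higher in 27.3%. The groups did not overlap in 15.7% with the triple knockdown lower and 15.9% with it higher. The falls were mostly small, with a median size of 0.57 on the log2 scale and 14 of 107 at 1 or more, while the rises had a median of 0.84 and 7 of 22 at 1 or more. When only the 4 libraries of these groups were fitted, 91 genes were called, 88 of them among the 129. Without the block 2 were called, also with that library omitted.

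MRPL12, NAXE, NDUFAF8 and MRPS18A were among the further genes called lower in that fit. MRPL12, a subunit of the mitochondrial ribosome, measured 664 and 687 CPM in the controls and 486 and 422 CPM in the triple knockdown and fell by 0.58 on the log2 scale (edgeR with the library omitted, adjusted p = 6.12e-06). NAXE, an epimerase that repairs damaged NAD(P)H, measured 233 and 229 CPM against 127 and 165 CPM and fell by 0.67 (adjusted p = 6.26e-05 in the same edgeR fit). NDUFAF8, another complex I assembly factor, and MRPS18A, of the small mitochondrial ribosomal subunit, fell by 0.39 and 0.57. The groups did not overlap for any of these 4 genes, which for NAXE the rule for naming it required. In RPRD1A_RPRD1A_KD both libraries also lay below both controls for each of the 4 genes. Their log2 fold changes against CTRL there, with all 16 samples, were -0.35 for MRPL12, -0.71 for NAXE, -0.34 for NDUFAF8 and -0.81 for MRPS18A. These falls were thus not particular to the triple knockdown.

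HIST1H1C, FADS1, PGAM1 and RRP7A were also called lower in that fit. HIST1H1C, a linker histone, measured 164 and 114 CPM in the controls and 85.5 and 78.4 CPM in the triple knockdown and fell by 0.74 on the log2 scale (edgeR with the library omitted, adjusted p = 0.000535). FADS1, a fatty acid desaturase, measured 128 and 135 CPM against 69.2 and 84.4 CPM (log2 fold change -0.78), and PGAM1, a glycolytic phosphoglycerate mutase, 115 and 118 CPM against 62.3 and 77.5 CPM (log2 fold change -0.73). RRP7A, needed to make the small ribosomal subunit, measured 113 and 109 CPM against 55.4 and 74.1 CPM (log2 fold change -0.78). In each of these 4 genes both triple libraries lay below both controls, and none passed with all 16 samples (edgeR adjusted p from 0.073 for FADS1 and RRP7A to 0.705 for PGAM1). HIST1H1C and RRP7A were also below both controls in both RPRD1A_RPRD1A_KD libraries. Their log2 fold changes against CTRL there, with all 16 samples, were -0.43 and -0.70.

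The genes that rose were fewer and lower in level. EEF1AKMT2, a methyltransferase of a translation elongation factor, measured 7.98 and 12.8 CPM in the controls and 27.5 and 27.6 CPM in the triple knockdown, a log2 fold change of 1.37 (edgeR with the library omitted, adjusted p = 0.00208). NR6A1, an orphan nuclear receptor, measured 23.9 and 24.1 CPM against 48.6 and 44.4 CPM, a log2 fold change of 0.94 (adjusted p = 0.00437 in the same edgeR fit). ATXN2L, a stress granule component, measured 42.2 and 50.1 CPM against 76.6 and 104 CPM, a log2 fold change of 0.97. In these 3 genes no triple library lay as low as either control, which the rule for naming them required. The control levels of EEF1AKMT2 rest on 14 and 28 counts. Its means in the other silenced groups ran from 15 to 26.2 CPM, above its control mean of 10.4 CPM. The means of NR6A1 there ran from 35 to 48.4 CPM, above its control mean of 24.05 CPM. The rises of both genes were thus not particular to the triple knockdown. ATXN2L means there ran from 36 to 64.4 CPM, against 90.4 CPM in the triple knockdown.

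AK3, a mitochondrial adenylate kinase, NUP98, a nuclear pore protein, BSDC1 and EPHX2, an epoxide hydrolase, also rose in that fit, with log2 fold changes of 0.80, 0.66, 0.62 and 1.19. Their triple knockdown means were 51.4, 69.2, 104 and 23.6 CPM. The highest mean in another silenced group was 47.5 CPM for AK3 (RPRD1A_RPRD1A_KD) and 55.1 CPM for NUP98 (RPRD2_KD). It was 107 CPM for BSDC1 (RPRD1B_KD) and 21.5 CPM for EPHX2 (RPRD1A_KD). The largest change, 1.65, was that of AC009501.1, a processed pseudogene at 10.3 and 66.5 CPM in the controls and 97.2 and 152 CPM in the triple knockdown. Its 2 controls differed several-fold from each other, and reads of a processed pseudogene cannot be separated with certainty from those of its parent. Of the 22 genes that rose 16 were protein-coding and 6 were not, and 98 of the 107 that fell were protein-coding. With all 16 samples none of the 22 passed, and the smallest edgeR adjusted p among those named here was 0.073, for NR6A1.

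**Figure D2:**
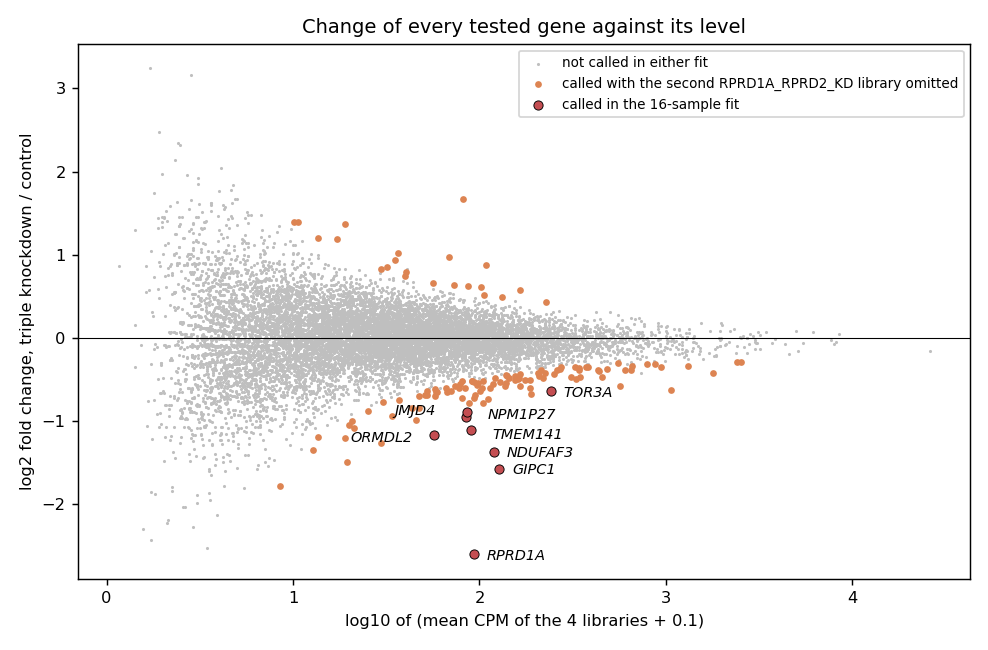
Log2 fold change of the triple knockdown over CTRL (y axis) against log10 of the mean CPM of the 4 libraries plus 0.1 (x axis) for the 11834 tested genes, with red points for the 8 genes called with all 16 samples and orange points for genes called only when the second RPRD1A_RPRD2_KD library was omitted. The 8 red points lie below 0, and orange points below 0 outnumber those above it.

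Gene lists were examined from the polymerase outward, each by the number of its tested members whose 2 triple libraries both lay below or both above the 2 controls. Over all tested genes these shares were 15.7% and 15.9%, and the median log2 fold change was -0.0015. All silenced groups share the 2 controls, so a shift of a list against them need not be particular to the triple knockdown. Of 25 genes for CTD-interacting domain proteins and CTD phosphatases 10 lay below the controls and 1 above, with a median of -0.12, and the 10 include the 3 targeted genes. RPAP2, the phosphatase that RPRD1A and RPRD1B bring to the polymerase, was at 41.6 and 23.7 CPM in the controls and 38.5 and 25.8 CPM in the triple knockdown. PCF11, a termination factor with the same domain, was the 1 gene above the controls, at 58.1 and 44.8 CPM against 41.6 and 43.3 CPM. Apart from the targets no gene of this list passed in either fit.

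Among 16 RNA polymerase II subunit and assembly genes 5 lay below the controls and 1 above (median -0.09). The largest subunit, POLR2A, measured 654 and 494 CPM in the controls and 644 and 487 CPM in the triple knockdown, so it differed far less between groups than between replicate numbers. The small shared subunit POLR2L measured 368 and 402 CPM against 309 and 288 CPM and fell by 0.37 when the library was omitted (edgeR, adjusted p = 0.0408). With GC correction as well POLR2L did not pass (edgeR, adjusted p = 0.127). Initiation, pausing and elongation factors had 6 of 49 members below and 10 above, with NELFE at -0.57 and AFF4 at 0.49 on the log2 scale and none called. Cleavage, polyadenylation and termination genes had 1 of 25 below and 3 above, and Mediator genes 5 of 32 below and 7 above, none of them called in either fit.

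Integrator genes had 5 of 17 members below and 2 above, and INTS5 fell by 0.44 with the library omitted (edgeR, adjusted p = 0.0412) but did not pass with GC correction as well (adjusted p = 0.0945). Spliceosome genes had 9 of 51 below and 4 above, and SF3B5, a U2 particle protein, fell by 0.34 in that fit from 1480 and 1466 CPM to 1136 and 1196 CPM (adjusted p = 0.00781). Ribosomal protein genes had 8 of 79 below and 4 above with a median of -0.01, and nuclear respiratory chain subunit genes 8 of 74 below and 6 above with a median of 0.01. No ribosomal protein or respiratory chain gene was called in either fit, and in both lists the shares on either side were under those of all genes.

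Mitochondrial ribosome and complex I assembly genes had 21 of 88 members below the controls and 12 above, with a median of -0.05. With the library omitted 4 members were called lower (NDUFAF3, MRPL12, NDUFAF8 and MRPS18A), 4.55% of the list against 0.873% of all genes tested. In that fit 2.95% of genes with a mean above 100 CPM were called lower, and 1.84% of the shortest of 4 bins by genomic span. The list was not matched to other genes for level, span or GC content. All 4 genes were also below both controls in both RPRD1A_RPRD1A_KD libraries. Against the same controls the list median ran from -0.040 to -0.0015 in the other silenced groups. Replication genes had 10 of 41 below and 3 above, and CDT1, which licenses replication origins, fell by 0.38 in that fit (edgeR, adjusted p = 0.0284). With GC correction as well CDT1 was at -0.27 and did not pass (edgeR, adjusted p = 0.197). Chaperone genes of the heat shock and endoplasmic reticulum sets had 12 of 42 below and 2 above with a median of -0.13. Against the same controls their median ran from -0.13 to -0.03 in the other silenced groups. Set directly against RPRD1A_RPRD1A_KD, RPRD1A_RPRD2_KD and RPRD1B_RPRD2_KD, the triple knockdown had chaperone medians of -0.015, 0.005 and -0.028. None of the 42 was called in either fit, and the largest of them by count, HSP90AB1, measured 4619 and 5113 CPM against 4397 and 4067 CPM. Proteasome genes had 8 of 32 below and 1 above, again with none called.

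Cyclins and cell cycle regulators were split evenly, with 5 of 44 below, 5 above and a median of -0.00074. Cyclin D1 (CCND1), the gene for which RPRD1B is best known, measured 62.1 and 57.4 CPM in the controls and 47 and 57.7 CPM in the triple knockdown, so the groups overlapped. Wnt and beta-catenin target genes had 1 of 16 below and 4 above (median 0.07) with none called, and MYC measured 26.8 and 44.2 CPM against 31.2 and 42.6 CPM. CCND1 and MYC, like POLR2A, RPAP2, PCF11 and HSP90AB1 above, were named after their values were seen. Stress response lists had equal numbers on both sides: p53 response genes had 4 of 25 below and 4 above, ATF4 response genes 4 of 36 below and 4 above, and immediate early genes 6 of 24 below and 6 above.

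Interferon response genes had 4 of 16 tested members below the controls and 1 above, and BST2, which tethers budding virus particles, fell by 0.53 when the library was omitted (edgeR, adjusted p = 0.0179). Of 38 interferon genes listed only 16 were abundant enough to test. Their median log2 fold change against CTRL was -0.12 in the triple knockdown and ran from -0.16 to -0.05 in the other silenced groups. Small RNA silencing genes, the machinery that siRNAs engage, had 0 of 13 below and 2 above. Histone genes whose transcripts normally lack a poly(A) tail were mostly under the filter, and of the 13 tested 3 lay below and 1 above. The remaining lists, cholesterol and fatty acid synthesis, hypoxia and glycolysis, and small nucleolar RNA host genes, had medians of 0.01, -0.05 and -0.07 and no member called other than FADS1 and PGAM1. The 13 mitochondrially encoded messenger RNAs could not be tested, as they are listed at 0 in every library.

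**Figure D3:**
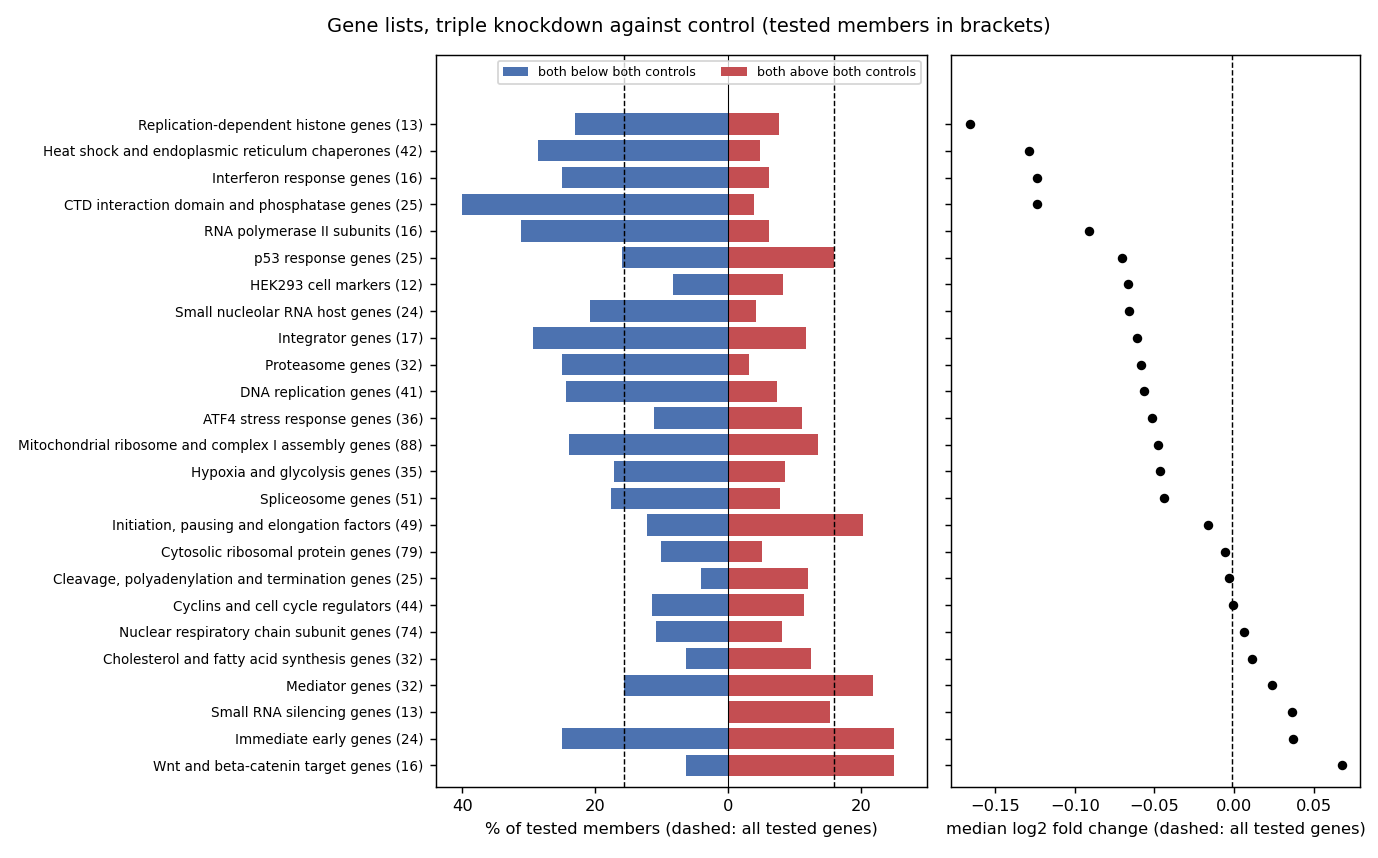
Left, share of tested members (%) of each gene list whose 2 triple knockdown libraries both lay below (blue) or both above (red) the 2 controls, with dashed lines for all tested genes (15.7% and 15.9%). Right, median log2 fold change of each list, with a dashed line for all tested genes, and the CTD list reaches 40% below, a share that includes the 3 targeted genes.

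Called genes were unevenly spread over gene size and base composition. With the library omitted 57 of the 107 falling genes were in the shortest of 4 equal bins of tested genes by genomic span (up to 11.6 kb), 1.84% of that bin, and 12 in the longest (77.7 kb or more), 0.403%. By transcript GC content 57 of the 107 were in the highest of 4 bins (57% or more) and 7 in the lowest. The 22 rising genes showed no such gradient by span, with 6 in the shortest bin and 5 in the longest. By GC content the rising genes numbered 6, 9, 5 and 2 from the lowest bin to the highest. The 2 control libraries had correlations of expression with GC content of 0.0873 and 0.05 and the 2 triple libraries of -0.121 and -0.0491. Libraries of one group also differed, with -0.214 and 0.0464 in RPRD1A_RPRD1A_KD. With 2 libraries per group, a shift in GC dependence between the groups cannot be told apart from such spread. After a correction for GC content 110 genes were called, 87 lower (0.71%) and 23 higher (0.188%), and 93 of them were among the 129. The corrected falls numbered 43 in the shortest and 12 in the longest bin by span, and 29 in the highest and 14 in the lowest bin by GC content. The corrected rises numbered 2, 6, 6 and 9 from the lowest GC bin to the highest. In the shortest bin by span the median log2 fold change against CTRL, without correction, was -0.07 in the triple knockdown. It ran from -0.07 to 0.03 in the other silenced groups. In the highest GC bin the median against CTRL was -0.08 in the triple knockdown, also without correction. With the same controls it was -0.05 in RPRD1A_KD, -0.07 in RPRD1B_KD, -0.05 in RPRD2_KD and -0.07 in RPRD1A_RPRD1A_KD. It was 0.08 in RPRD1A_RPRD2_KD and -0.06 in RPRD1B_RPRD2_KD. Set directly against RPRD1A_RPRD1A_KD, RPRD1A_RPRD2_KD and RPRD1B_RPRD2_KD, the triple knockdown had medians of -0.009, -0.18 and -0.015. The part of base composition in the falls of single genes beyond the GC correction was not tested.

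**Figure D4:**
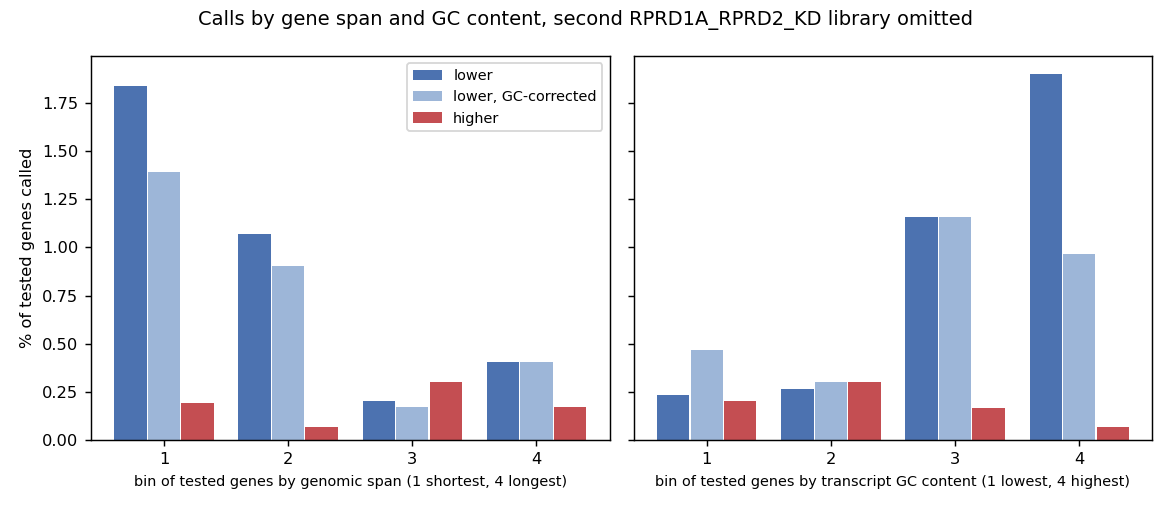
Share (%) of tested genes called lower, called lower after GC correction, and called higher, in 4 equal bins of genomic span (left) and of transcript GC content (right), with the second RPRD1A_RPRD2_KD library omitted. Lower calls are most frequent in the shortest bin (1.84%) and in the highest GC bin (1.9%), and the correction reduces the second to 0.966%.

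By level, 60 of the 107 falls were in genes with a mean above 100 CPM, 2.95% of that class. At 10 to 100 CPM 46 genes fell (0.679%), and 1 fall was in a gene at 10 CPM or less. The rises numbered 17 at 10 to 100 CPM (0.251%) and 5 above 100 CPM (0.246%). The part of level in these counts was not tested. Genes annotated as antisense transcripts had a median log2 fold change of -0.14 over 249 tested, with 68 below both controls (27.3%) and 23 above (9.24%), and the GC-corrected median was -0.16. In the groups RPRD1A_KD, RPRD1B_KD and RPRD2_KD, which share the controls, the medians of these antisense genes were -0.11, -0.19 and 0.04. Against the groups labelled with a pair of names, comparisons in which the controls do not enter, the triple knockdown had antisense medians of 0.08 for RPRD1A_RPRD1A_KD, -0.15 for RPRD1A_RPRD2_KD and -0.03 for RPRD1B_RPRD2_KD. With the library omitted 3 of 299 antisense genes (1%) were called lower, against 0.873% of all genes tested, and none was called with all 16 samples.

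The promoters of the falling genes were set beside those of all tested genes. Over 87 of the 98 falling protein-coding genes whose start could be matched in RefSeq, 71.3% had a GC box within 250 bases upstream on either strand, against 69.9% of 8913 matched genes among those tested. The shares for CCAAT were 35.6% and 36%, for the ETS core CCGGAAG 11.5% and 17.2%, for TATAAA 3.45% and 4.7%, and for the E-box CACGTG 10.3% and 9.11%. The median GC content of the windows was 66% and 65.6%. These are counts of letters in a window and do not mark binding sites.

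The 7 called genes other than RPRD1A were not at one level across the silenced groups. GIPC1 was at 55.9 and 47.2 CPM in RPRD1B_KD, 64.9 and 69.9 CPM in RPRD1A_RPRD1A_KD and 77.2 and 57.9 CPM in RPRD1B_RPRD2_KD, ranges that overlap or lie beside the triple knockdown. It was at 155 and 169 CPM in RPRD1A_KD, 149.6 and 138 CPM in RPRD2_KD and 185 and 144 CPM in RPRD1A_RPRD2_KD. The 4 groups with low GIPC1, the triple knockdown among them, were those in which both RPRD1B levels were 14.8 CPM or less.

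JMJD4, TMEM141, NDUFAF3 and ORMDL2 had their lowest levels in the triple knockdown and in RPRD1A_RPRD1A_KD. JMJD4 was at 51.7 and 66.4 CPM in RPRD1A_RPRD1A_KD and from 89.9 to 117 CPM in the other 5 silenced groups. TMEM141 was at 41.7 and 64.5 CPM there and at 75.1 CPM or more in those 5 groups. NDUFAF3 was at 61.8 and 82.7 CPM there, while RPRD1A_KD, at 84.8 and 125 CPM, was the next lowest. ORMDL2 was at 23.2 and 35.2 CPM there, against 46 CPM or more elsewhere. TOR3A followed another order, with 160 and 143 CPM in RPRD2_KD, 161 and 164 CPM in RPRD1A_RPRD2_KD and 171 and 153 CPM in RPRD1B_RPRD2_KD. These levels were under the higher of the 2 triple libraries, at 212 CPM. In the silenced groups whose labels lack RPRD2 it ran from 222 CPM in RPRD1A_RPRD1A_KD to 278 CPM in RPRD1B_KD. Those levels were also below both controls (304 and 285 CPM). NPM1P27 followed none of these orders, with 80.8 and 78.4 CPM in RPRD1A_RPRD1A_KD, 75.9 and 94.5 CPM in RPRD2_KD and 87.7 and 84.8 CPM in RPRD1B_RPRD2_KD. It was at 129 and 109 CPM in RPRD1A_KD, 119 and 92.6 CPM in RPRD1B_KD and 108 and 114 CPM in RPRD1A_RPRD2_KD, so both triple libraries were its lowest.

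**Figure D5:**
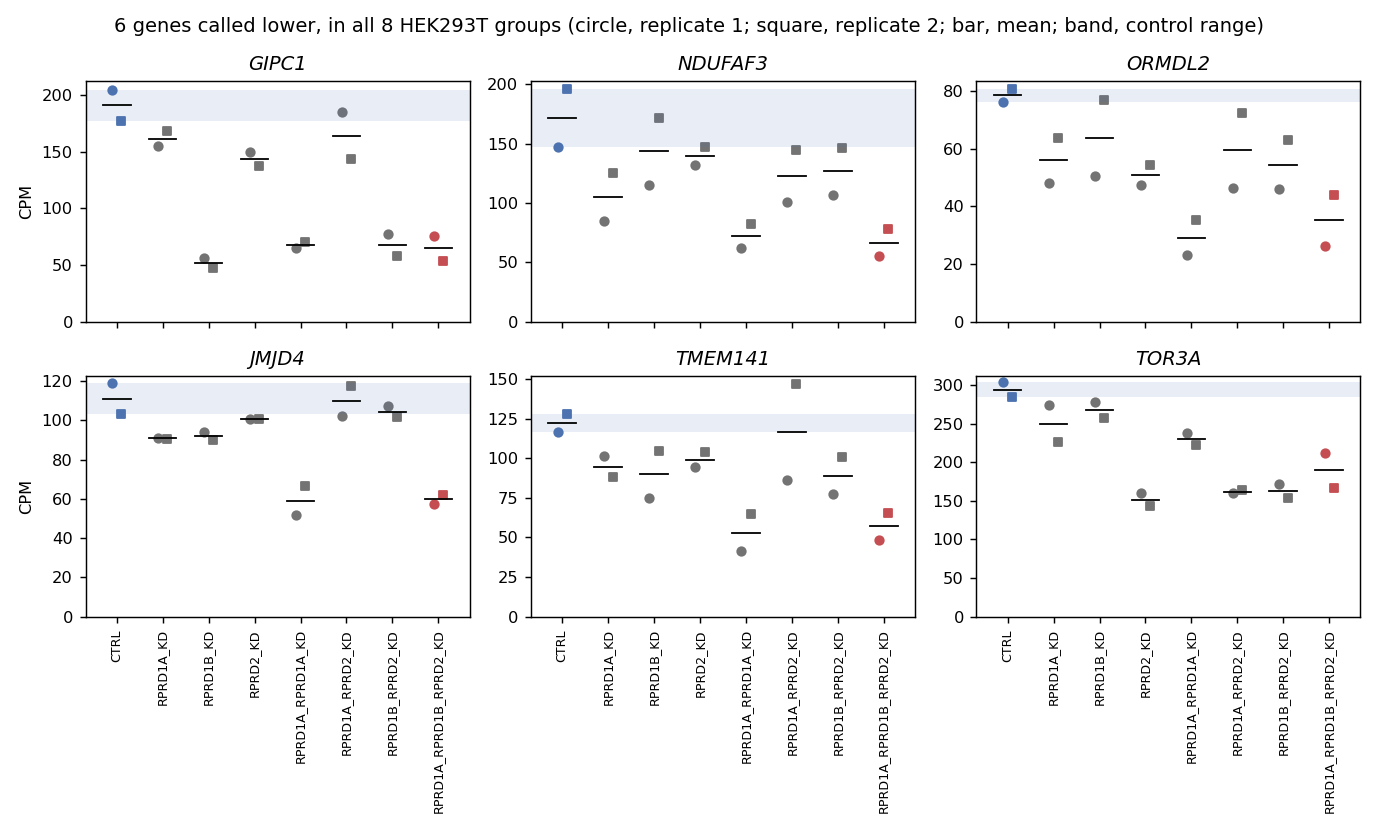
Level (CPM, axes from 0) of 6 genes called lower in the triple knockdown, in all 8 HEK293T groups, with a circle for replicate 1, a square for replicate 2, a bar for the mean and a band for the range of the controls. GIPC1 is low in the 4 groups whose RPRD1B levels were 14.8 CPM or less. TOR3A is lowest in the 4 groups aimed at RPRD2 and also lies below both controls in the other silenced groups. The other 4 genes are lowest in RPRD1A_RPRD1A_KD and the triple knockdown.

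The triple knockdown was compared directly with each of the 3 groups whose labels hold a pair of names. Against RPRD1A_RPRD1A_KD no gene passed with all 16 samples (edgeR, 0% of 11834 called, 132 genes higher (1.12%) and 138 lower (1.17%) at an unadjusted p under 0.05, and no gene called by DESeq2). With the library omitted 1 gene was lower (0.00816% of genes tested), RPRD2 itself, with a log2 fold change of -0.75 (SE 0.14, edgeR adjusted p = 0.0169). The differences of the called genes in this comparison were -0.09 (SE 0.17) for GIPC1, -0.12 (SE 0.15) for NDUFAF3, 0.26 (SE 0.20) for ORMDL2, 0.01 (SE 0.16) for JMJD4 and 0.10 (SE 0.20) for TMEM141. RPRD1A differed by 0.37 (SE 0.26), NPM1P27 by -0.46 (SE 0.17) and TOR3A by -0.29 (SE 0.12), the latter pair at unadjusted p = 0.0116 and 0.0251 by edgeR. A p above the threshold does not show that the groups were alike.

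Against RPRD1A_RPRD2_KD 10 genes passed with all 16 samples, 7 lower (0.0592%) and 3 higher (0.0254%). GIPC1 was lower by 1.35 on the log2 scale (SE 0.16, edgeR adjusted p = 0.000553), and NDUFAF3, NPM1P27, JMJD4 and TMEM141 were lower by 0.88, 0.95, 0.88 and 1.03. RRP7A and FAAP100, a Fanconi anaemia core protein, were lower by 0.83 and 0.84. With the second RPRD1A_RPRD2_KD library omitted, which leaves 1 sample in that group assumed to vary like the others, 12 genes were called, 5 lower (0.0408%) and 7 higher (0.0571%). Of the 10 genes GIPC1, NDUFAF3, NPM1P27, RRP7A, MYL12B and SEC61G were among these 12, whereas JMJD4 (adjusted p = 0.0508), TMEM141 (0.182), FAAP100 (0.2) and RGS9 (0.407) were not. Leaving out the first triple library left 1 called gene, and leaving out the second left 0.

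The 3 genes higher than in RPRD1A_RPRD2_KD were low in that group, also beside the controls. MYL12B, a myosin regulatory light chain, was at 196 and 154 CPM in the triple knockdown, 114 and 40.8 CPM in RPRD1A_RPRD2_KD and 138 and 136 CPM in CTRL. SEC61G, a subunit of the protein translocation channel, was at 710.1 and 673 CPM, 493 and 315 CPM and 856 and 753 CPM in the same order. RGS9, a regulator of G-protein signalling, was at 15.8 and 22 CPM, 6.01 and 5.35 CPM and 16 and 20.5 CPM. For all 3 genes the RPRD1A_RPRD2_KD libraries lay below every control, and against CTRL none passed (edgeR, adjusted p = 0.783, 0.779 and 0.982).

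Against RPRD1B_RPRD2_KD 2 genes passed, both lower (0.0169%). RPRD1A was lower by 1.54 (SE 0.22, edgeR adjusted p = 0.0109) and is the target by which the siRNA sets differ. NDUFAF3 was lower by 0.93 (SE 0.14, edgeR adjusted p = 0.0114), at 55.4 and 77.9 CPM against 107 and 147 CPM. With the library omitted JMJD4, at -0.81 (edgeR, adjusted p = 0.00087), and the small nuclear RNA RNU5F-1, at -0.94 (adjusted p = 0.0151), were also lower, 4 genes in all (0.0326%). Without the block neither this comparison nor the one before it had a called gene with all 16 samples. In the comparison with RPRD1B_RPRD2_KD leaving out any one library also ended both calls.

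The log2 fold change of the triple knockdown was last set against that of the 3 single knockdowns added together, a contrast in which the controls enter with a weight of 2. No gene passed with all 16 samples (edgeR, 0% of 11834), where 453 genes were higher (3.83%) and 260 lower (2.2%) at an unadjusted p under 0.05, and DESeq2 called none. With the library omitted 89 genes passed, 85 with a triple effect above the sum (0.694%) and 4 below it (0.0326%), and without the replicate block 0 passed in that fit. RPRD1A was 2.04 above the sum (SE 0.40, edgeR adjusted p = 0.332, and 0.000123 with the library omitted), and as given above it was under its control levels in RPRD1B_KD and RPRD2_KD too. GIPC1 was 0.95 above it (SE 0.30, adjusted p = 0.617, and 0.0453 with the library omitted), and of the single knockdowns it was lowest in RPRD1B_KD. For NDUFAF3, JMJD4 and TMEM141 the difference from the sum was -0.10 (SE 0.26), -0.19 (SE 0.29) and 0.02 (SE 0.37). RPRD2 itself was 0.95 above the sum (SE 0.30, edgeR adjusted p = 0.617). It was at 70.2 and 53 CPM in the triple knockdown against 34.7 and 31.1 CPM in RPRD2_KD. The contrast thus does not compare groups with equal silencing of RPRD2. The part of this and the part of the controls in the contrast were not tested.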

How the data were processed

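RNA of the 16 HEK293T samples (8 groups of 2) was used. The deposited values are raw whole-number counts, 1 table per library with 58138 gene names and 5 closing rows. Per the submitters' processing notes, FastQC, STAR, HTSeq, DESeq2 and GRCh38 were used; versions, annotation and strand setting are not given in the sources used here. The closing rows were left out of library sizes and tests; in the 4 libraries 27.4% to 36% of reads lay in no feature, 1.34% to 1.55% were ambiguous and 9.56% to 11.9% had no unique position.

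The test was that of edgeR 4.0.16, run with limma 3.58.1 in R 4.3.3: filterByExpr (minimum count 10, minimum total count 15), TMM scaling, a coefficient per group, the replicate number as a block, the quasi-likelihood test and Benjamini-Hochberg adjustment, with a call at an adjusted p under 0.05. All 16 samples shared 1 estimate of spread. SE was derived from the log2 fold change and the F statistic. Scripts were tested on simulated data with known changes in the triple knockdown. The fit with all 16 samples called 16.4% of 1.5-fold, 47.8% of 2-fold and 75.8% of 4-fold changes against CTRL, with 4 false calls. Changes of these sizes can thus be missed. The replicate numbers come from the titles: over 8810 genes deviations from the group mean correlated, for samples of one number, at 0.367 between CTRL and the triple knockdown and at a mean of 0.333 over 28 pairs of groups (-0.0113 to 0.524). The smallest values involve RPRD1A_RPRD2_KD; without that group the range was 0.29 to 0.524. Within a group the chi-square per degree of freedom was 5.55 (CTRL) and 3.52 (triple knockdown), so in neither of these groups was one library a copy of the other.

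Alternatives were no block, RLE factors, DESeq2 1.42.0, no filter, a mean count of 50 or more, fewer samples, a GC correction (lowess, span 0.3), a minimum log2 fold change of 1, and omission of each library. GENCODE 29, matched by 54848 names, gave coordinates, span and GC content; RefSeq gave promoters. Named genes are the targets, every called gene, up to 10 rising and 10 falling genes with the smallest p in the fit without the second RPRD1A_RPRD2_KD library (groups not overlapping, higher mean 10 CPM or more), and per list the called members or the 2 with the smallest p; some of these are not printed. The members and gene lists were chosen with earlier results of these data known. The tables hold no molecular identifiers, so floors cover counting error only, and TMM removes any change of all transcripts together.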

Additional observations from a re-analysis of the deposited data

Results flagged for a closer look

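Each result here is a difference between the triple knockdown and a group labelled with a pair of RPRD names that passed the test of that difference itself (edgeR's quasi-likelihood test with the replicate block, all 16 samples), given as a log2 fold change of the triple knockdown over the other group. Against RPRD1A_RPRD2_KD the differences were -1.35 for GIPC1, -0.88 for NDUFAF3, -0.95 for NPM1P27, -0.88 for JMJD4, -0.84 for FAAP100, -0.83 for RRP7A and -1.03 for TMEM141 on the lower side. On the higher side they were 1.27 for MYL12B, 0.80 for SEC61G and 1.78 for RGS9. Against RPRD1B_RPRD2_KD they were -1.54 for RPRD1A and -0.93 for NDUFAF3.

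NDUFAF3 is the gene that differed in both of these comparisons. The libraries of RPRD1A_RPRD2_KD differed from each other more than those of other groups, so its 10 differences rest in part on a library that stands apart. When that library was omitted 6 of the 10 differences passed again.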

How the results depend on the processing

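RPRD1A, GIPC1 and NDUFAF3 were called lower against CTRL without any one of the 4 libraries, and the count of 8 ranged from 3 to 4 there. The count was 2 with no replicate block, 24 with no filter on low counts, 129 with the second RPRD1A_RPRD2_KD library omitted (2 without the block), 110 with GC correction as well, 91 in a fit of only the 2 groups (2 without the block), and 5 at a log2 fold change of 1 or more. RPRD1B became significant at -1.47 with no filter, -1.49 with the library omitted, -1.51 with GC correction as well and -1.48 in the fit of 2 groups, and RPRD2 at -0.73, -0.75 and -0.72 in the last 3.

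Against RPRD1A_RPRD1A_KD the count of 0 became 1 with the library omitted, with or without GC correction. Against RPRD1A_RPRD2_KD the count of 10 became 0 with no replicate block, 44 with DESeq2, 536 with no filter, 1 with the library omitted and no block, 4 with GC correction, 16 with GC correction and the library omitted, 124 in the fit of 2 groups (0 without the block) and 4 at a log2 fold change of 1 or more. Leaving out single libraries gave 0 to 2698, the highest without the first RPRD1A_RPRD2_KD library, which leaves only the one that stands apart. Against RPRD1B_RPRD2_KD the count of 2 became 0 with no replicate block, 4 with the library omitted (0 without the block), 4 with GC correction as well, 26 in the fit of 2 groups (1 without the block), 1 at a log2 fold change of 1 or more and 0 without any one library. For the triple effect minus the sum of single effects the count of 0 became 7 with no filter, 89 with the library omitted (0 without the block) and 83 with GC correction as well. The cause of these changes was not tested.

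Of the remaining values for single genes 848 kept their direction and side of the threshold, 79 passed it newly, 37 no longer passed it and 3 changed direction. RGS9 was at -0.054 and NEFM at 0.062 without the second CTRL library (up to 0.13 and down to -0.81 with another left out), and EPCAM at 0.22 without the second triple library (down to -2.16). Groups of 2 and 1833696 counts in the shallowest of the 4 libraries limit what low genes can show.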
